A study of Mus musculus with 8 samples.

Results

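Microglia of the paraventricular nucleus (PVN) of the mouse hypothalamus were the 2513 cells that carried the cell type label Microglia in the deposited table of 35672 cells, 7.04% of all cells (95% exact Clopper-Pearson interval 6.78% to 7.32%, which covers counting error only). The label and its 3 clusters, Microglia_1 with 1543 cells, Microglia_2 with 764 cells and Microglia_3 with 206 cells, are the authors' own annotation. The study profiled dissociated PVN cells of C57BL/6 mice with 10x Genomics 3′ v2 single-cell RNA sequencing, in 8 libraries. Each stood alone for 1 sex, 1 cohort and 1 exposure. The baseline cohort (10 weeks old) held unstressed controls and mice given acute restraint stress (ARS) for 15 minutes. The CMS cohort (11 weeks old) held mice given 21 days of chronic mild stress (CMS) followed by the same acute restraint, and controls that are labelled unstressed. All brains were taken from mice perfused with cold PBS, 5 hours after the restraint in the stressed mice. The PVN was digested with papain and DNase I, and the labels' protocols name no sort of cells. The labels do not give the number of animals in a library. There are no replicate libraries, so p-values measure the spread between libraries that sex, cohort and exposure leave unexplained. Interactions of these that a fit leaves out count in that spread.

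Microglia are the resident phagocytes of the brain and arise from yolk sac progenitors. They survey the tissue with motile processes, clear debris and synapses, and renew themselves locally by division. Macrophages, the other immune type annotated here, sit at the borders and vessels of the brain and share much of their gene expression with microglia. The PVN holds the neuroendocrine neurons that start the hormonal stress response.

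The deposited table gives 6 numbers per cell: unique molecular identifiers (UMIs, the count of RNA molecules read), genes detected, the share of UMIs from mitochondrial genes, a doublet score, and S-phase and G2/M-phase scores. Gene expression values were not used here, so the label was not checked against the microglial genes Cx3cr1, P2ry12 and Tmem119 and no cluster was given a name beyond its number. Clusters were made by the authors from the expression of the same cells, so values of 1 cluster against another, or of Microglia against Macrophages, are descriptions without a test.

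Each library held 3523 to 5777 cells and 9924892 to 15760435 UMIs. Microglia gave 242 to 413 cells per library and 3.57% to 6.36% of its UMIs. Of 34942 different cell barcodes, 722 (2.07%) occurred in more than 1 library and at most in 3. This touched 111 Microglia (4.42%). Of the 107 pairs of cells that had 1 barcode and at least 1 microglia, 4 had the Microglia label on both sides.

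The 3 clusters differed in how much RNA was read from each cell. Microglia_2 cells had the most UMIs and genes read, with medians of 2851.5 UMIs and 1288 genes. Microglia_1 cells had 1634 UMIs and 924 genes, and Microglia_3 cells 983 UMIs and 526.5 genes. Of 33 clusters in the table, Microglia_3 had the second lowest median number of genes, and 52.4% of its cells had fewer than 1000 UMIs, against 6.61% of Microglia_1 and 1.96% of Microglia_2.

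The same order, Microglia_2 above Microglia_1 above Microglia_3, held for both measures in 8 of 8 libraries. Library medians of UMIs ran from 2459.5 to 3456 in Microglia_2, from 1511 to 1818 in Microglia_1 and from 779 to 1289 in Microglia_3. None of these ranges overlapped. The ranges of genes were 1199 to 1438, 866.5 to 1009 and 438.5 to 669, again without overlap.

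The mitochondrial share ran in another order: lowest in Microglia_1, higher in Microglia_2 and highest in Microglia_3, in 8 of 8 libraries. The medians over cells were 1.18%, 2.08% and 2.94% of UMIs. Library medians of Microglia_1 ran from 0.981% to 1.43%, those of Microglia_2 from 1.79% to 2.41%, and those of Microglia_3 from 2.61% to 3.29%. The cluster with the fewest UMIs and genes thus had the highest mitochondrial share, while of the other 2 the cluster with more UMIs had the higher one.

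**Figure D1:**
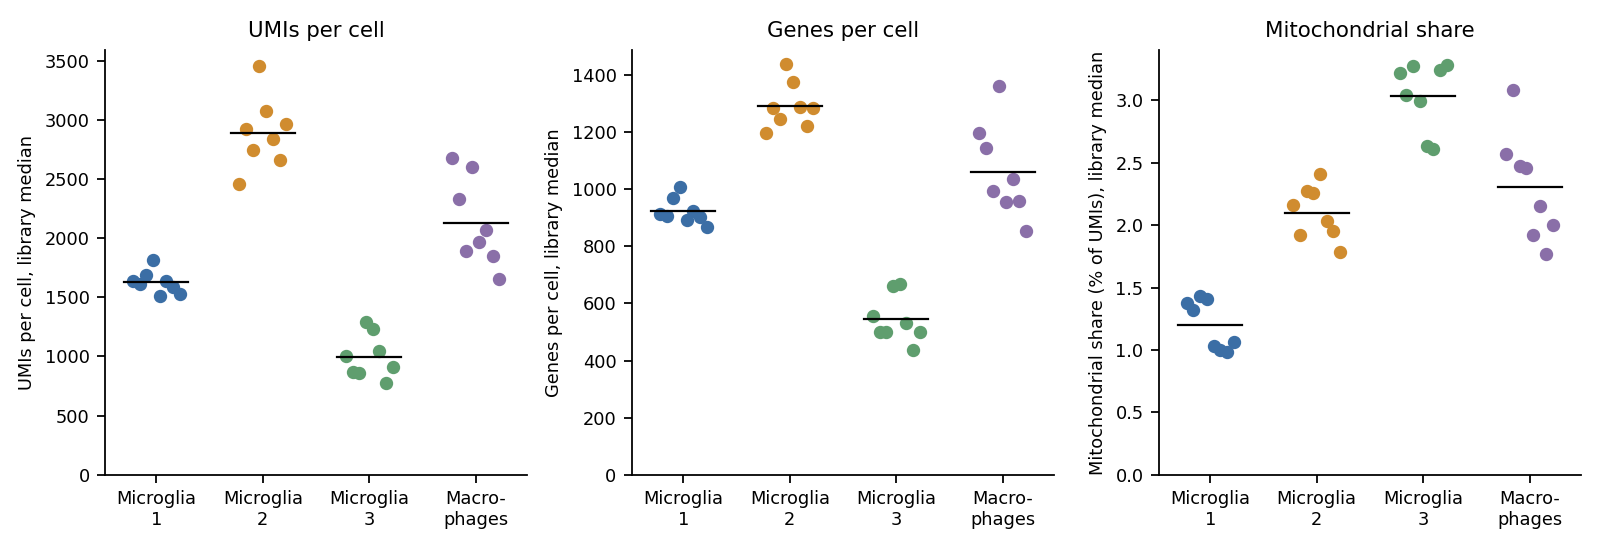
Library medians of UMIs, of genes and of the mitochondrial share (% of UMIs) per cell in the 3 clusters of Microglia and in Macrophages; each point is 1 of 8 libraries and the line is their mean. The 3 clusters occupy separate ranges in every panel, and Microglia_1 lies in 2 groups of 4 libraries for the mitochondrial share.

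Cells with like numbers of UMIs still differed between clusters, as the plot by UMI band shows. Among cells with 1000 to 1499 UMIs, Microglia_1 (498 cells) and Microglia_2 (59 cells) had 786 and 747 genes at the median, and Microglia_3 (49 cells) had 637. The mitochondrial share in this band was 1.01% and 1.02% in Microglia_1 and Microglia_2 and 2.99% in Microglia_3. From 1500 to 1999 UMIs the shares were 1.17%, 1.24% and 3.08%, over 567, 121 and 32 cells.

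The gap between Microglia_1 and Microglia_2 in the mitochondrial share was thus small from 1000 to 1999 UMIs. It was wider both under 1000 UMIs and from 2000 to 2999 UMIs. Under 1000 UMIs the share was 1.27% in Microglia_1 (102 cells) and 1.75% in Microglia_2 (15 cells). At 2000 to 2999 UMIs it was 1.31% in Microglia_1 and 1.80% in Microglia_2, and Microglia_2 cells with 4000 UMIs or more reached 3.07%. Spearman's correlation of UMIs with the mitochondrial share was 0.405 over the 764 cells of Microglia_2, 0.169 over the 1543 of Microglia_1 and 0.122 over the 206 of Microglia_3. These cells share libraries and the 2 measures share their UMIs, so the correlations are descriptions.

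Counted by library among cells with 800 to 1599 UMIs, Microglia_3 had fewer genes and a higher mitochondrial share than both other clusters in 8 of 8 libraries. The UMIs of Microglia_3 were also lower within this band in 8 of 8 libraries, with a median of 1114 against 1334 in Microglia_1 and 1363 in Microglia_2. Microglia_1 and Microglia_2 had no fixed order there: Microglia_1 had more genes in 5 libraries and a higher mitochondrial share in 3. The smallest number of cells behind these library medians was 2 for Microglia_2 and 7 for Microglia_3.

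**Figure D2:**
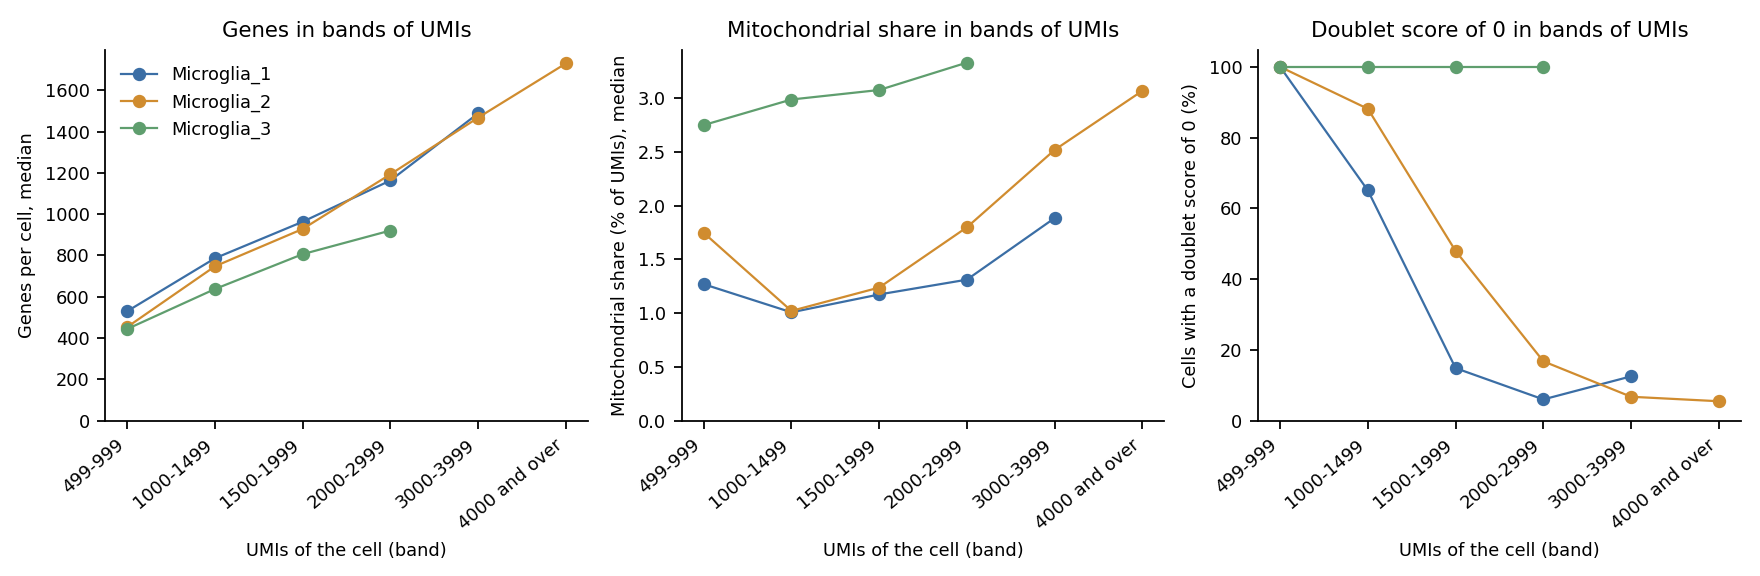
Median genes per cell, median mitochondrial share (% of UMIs) and percent of cells with a doublet score of 0, in bands of UMIs per cell, for the 3 clusters over all libraries; bands with under 10 cells of a cluster are not drawn. Microglia_3 lies lowest for genes, highest for the mitochondrial share and at 100% for the doublet score in every band drawn, from 1000 UMIs up apart from the 2 other clusters.

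The doublet score, by which 2 cells caught in 1 droplet are sought, was 0 in 36.8% of Microglia (interval 35.0% to 38.8%), against 27.1% of all cells. It was 0 in 34.7% of Microglia_1 and 24.1% of Microglia_2. In Microglia_3 it was 0 in all 206 cells (interval 98.2% to 100%). Microglia_3 was the only one of the 33 clusters at 100%, and the next was Ependymal_2 with 97.6%.

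The score rose with UMIs, with a Spearman correlation of 0.675 over the 2513 Microglia (0.635 to 0.725 by library), a description over cells that share libraries and depth. All 225 Microglia with under 1000 UMIs scored 0. Microglia_3 cells scored 0 at higher depth too: all 32 with 1500 to 1999 UMIs did, against 14.8% of Microglia_1 and 47.9% of Microglia_2 in that band. The mean score by library ran from 0.863 to 1.10 in Microglia_1 and from 1.37 to 1.69 in Microglia_2, so these ranges did not overlap.

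Macrophages (229 cells) had a median of 2113 UMIs and 1071 genes, between Microglia_1 and Microglia_2, and a doublet score of 0 in 70.7% of cells. Microglia made up 91.6% of the cells of these 2 immune types, and 90.1% to 93.8% by library. Macrophages had the higher library median of the mitochondrial share in 8 of 8 libraries.

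Microglia had the lowest mitochondrial share of the 17 cell types. The median over their cells was 1.46%, and the next types were Macrophages with 2.27% and Pericytes, the contractile cells of capillary walls, with 2.53%. Microglia had the lowest library median among the types compared in each of the 8 libraries. Microglia_1 was likewise the lowest cluster in each library, while Microglia_3 ranked only 12th from the lowest of 33 clusters.

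The tail of high values was short too. A mitochondrial share over 5% occurred in 152 Microglia (6.05%), against 43.4% of all cells and 9.61% of Macrophages. By cluster this was 2.72% of Microglia_1, 10.5% of Microglia_2 and 14.6% of Microglia_3. At the other end, 11 of the 18 cells of the table with no mitochondrial UMI were Microglia.

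The mitochondrial share of Microglia was lower in each of the 4 CMS libraries than in each of the 4 baseline libraries. The Microglia medians of the baseline cohort were 1.61% in the female controls, 1.53% in the male controls, 1.68% in the stressed females and 1.62% in the stressed males. The CMS cohort gave 1.37%, 1.29%, 1.13% and 1.44% in the same order. The groups did not overlap, which held for 25.0% of the 16 types with at least 10 cells in every library (4 of 16).

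The mean of the library medians was 1.31% ± 0.133 (SD, n = 4 libraries) in the CMS cohort and 1.61% ± 0.0605 (SD, n = 4) in the baseline cohort. The difference, -0.301 percentage points (SE 0.0902), did not pass limma's moderated test over the 16 types after Benjamini-Hochberg adjustment (adjusted p = 0.0851). An exact two-sided permutation of 4 against 4 libraries gave p = 0.0286, the smallest value this design can give. For a fixed mix of clusters, a library's value was the mean of its cluster medians, weighted by each cluster's cells over all libraries. With the mix so held fixed the difference was -0.272 points (limma adjusted p = 0.0288). It passed there the threshold of 0.05 on the adjusted p, beyond which a difference is termed called.

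Microglia_1 carried the clearest cohort difference of the 3 clusters. Its library medians in the baseline cohort were 1.37% and 1.32% in female and male controls and 1.43% and 1.41% in stressed females and males. In the CMS cohort they were 1.03% and 1.001% in female and male controls and 0.981% and 1.06% in stressed females and males. The cohorts stood apart among controls and among stressed libraries alike, and 17.2% of clusters (5 of 29) did not overlap in this way.

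The means were 1.02% ± 0.0361 (SD, n = 4) in the CMS cohort and 1.38% ± 0.0472 (SD, n = 4) in the baseline cohort, a ratio of 0.737. The difference of -0.364 points (SE 0.0555) passed limma's test over 29 clusters (adjusted p = 0.0215). It was 1 of 3 clusters of Microglia called, against 10.3% of all clusters tested (3 of 29). Leaving out 1 library ended the call for 6 of the 8 libraries, with limma adjusted p from 0.0463 to 0.133 over the 8 fits that left out 1 library; it was kept without the male baseline controls and without the stressed males of the CMS cohort. It was also lost among cells with a doublet score of at most 1 (difference -0.463 points, limma adjusted p = 0.108).

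The Microglia_1 groups remained apart among cells of like depth. Among cells with 800 to 1599 UMIs, the library medians of Microglia_1 were 1.21% to 1.42% in the baseline cohort and 0.847% to 0.985% in the CMS cohort, over 58 to 139 cells each. The share of Microglia_1 cells over 5% was 4.23% (32 of 757 cells) in the baseline cohort and 1.27% (10 of 786) in the CMS cohort.

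Microglia_2 and Microglia_3 overlapped between cohorts. The Microglia_2 medians were 1.92% to 2.28% in the baseline cohort and 1.79% to 2.41% in the CMS cohort, a difference of -0.109 points (SE 0.150, limma adjusted p = 0.658). The Microglia_3 medians were 2.996% to 3.28% and 2.61% to 3.29%, a difference of -0.192 points (SE 0.162, limma adjusted p = 0.422). Whether the cohort difference of Microglia_1 differed from theirs was not tested.

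Other cells differed between the cohorts as well. Over all cells of a library the median mitochondrial share was higher in the CMS cohort, at 4.50% to 4.79% against 4.26% to 4.47%. By type, 11 of 16 were lower in the CMS cohort and 5 higher, with a median difference of -0.218 points. Limma called 3 of 16 types (18.8%): Macrophages (-0.688 points, adjusted p = 0.0213) and Endothelial cells (-0.288, adjusted p = 0.0435) were lower and Ependymal cells (0.467, adjusted p = 0.0435) higher. The mice of the 2 cohorts also differed in age, and the cells of the 2 cohorts are labelled as separate experiments. Age, and anything else that differed between the experiments, cannot be told apart from cohort.

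**Figure D3:**
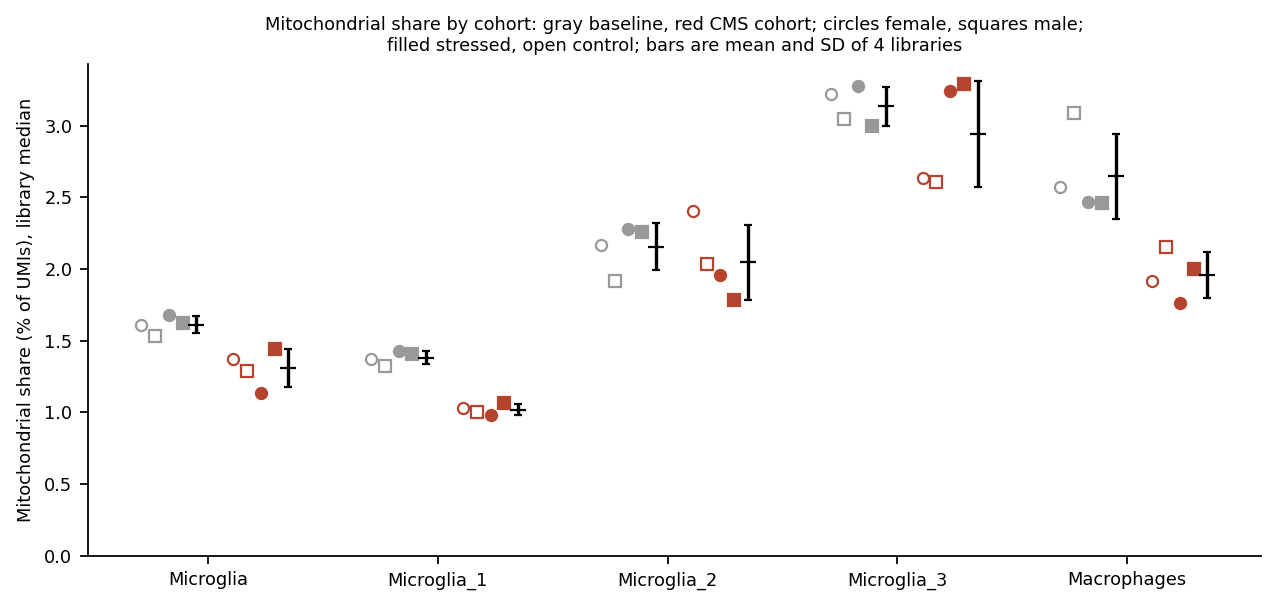
Library medians of the mitochondrial share (% of UMIs) for Microglia, the 3 clusters and Macrophages, split by cohort (gray baseline, red CMS); circles are female and squares male libraries, filled symbols stressed and open symbols control, and the bars give the mean and SD of 4 libraries. The cohorts do not overlap in Microglia, Microglia_1 and Macrophages, and overlap in Microglia_2 and Microglia_3.

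The depth of Microglia was lower in the CMS cohort too. The library medians of UMIs were 1779.5 and 1871 in the female and male controls and 1790 and 1962 in the stressed females and males of the baseline cohort. In the CMS cohort they were 1697 and 1731 in the controls and 1662 and 1676.5 in the stressed females and males. The cohorts did not overlap, which held for 6.25% of types (1 of 16, Microglia themselves). The difference of -0.13 on the log2 scale (SE 0.0939) did not pass limma's test (adjusted p = 0.436, with 18.8% of types called). UMIs were lower in the CMS cohort in 12 of 16 types and higher in 4, with a median difference of -6.08%. Macrophages were lower in 4 of 4 pairs, with means of 1884 against 2376. Over all cells of a library the medians were 1845 to 2221 in the CMS cohort and 2098 to 2565 in the baseline cohort. The part of depth in the mitochondrial difference was not tested, and the medians of Microglia_1 in the band of 800 to 1599 UMIs are those above.

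The number of mitochondrial UMIs per cell, a measure added after the data were seen, was lower in the CMS cohort. It is the product of a cell's mitochondrial share and its UMIs, both described above, so it is not separate evidence. The Microglia medians were 28, 29, 29.5 and 31 in the baseline cohort and 23, 21, 18 and 24 in the CMS cohort, in the order female controls, male controls, stressed females and stressed males. The mean fell from 29.4 ± 1.25 to 21.5 ± 2.65 (SD, n = 4 each), or -0.46 on the log2 scale (SE 0.102, limma adjusted p = 0.000246). Limma called 31.2% of types for this measure (5 of 16), all lower.

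The call for Microglia was kept without any 1 library. It was lost with the cluster mix held fixed (-0.22 on the log2 scale, limma adjusted p = 0.262) and relative to all cells of the library (-0.30, limma adjusted p = 0.194). The fixed mix puts a weighted mean of cluster medians in place of the median over cells, so it changes more than the mix. What part of the loss came from either was not tested. Microglia_1 fell from 23.0 ± 1.83 to 16.4 ± 0.946 mitochondrial UMIs (SD, n = 4 each; -0.49, limma adjusted p = 0.0329; 10.3% of clusters called). That call was kept in only 2 of the 8 fits that left out 1 library and was lost without either of the stressed baseline libraries, the female baseline controls, either of the stressed CMS libraries or the male CMS controls.

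The share of Microglia among all cells did not pass the test for stress, sex or cohort. It was 5.22% in female controls and 7.48% in male controls of the baseline cohort, and 7.03% and 7.52% in the stressed females and males. In the CMS cohort it was 6.91% and 7.54% in female and male controls, and 8.29% and 6.87% in the stressed females and males. The female baseline controls stood lowest and the stressed females of the CMS cohort highest, and stressed and control libraries overlapped.

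The stressed libraries held 7.43% ± 0.639 Microglia and the controls 6.79% ± 1.08 (SD, n = 4 each). The log2 fold change was 0.14 (SE 0.230, edgeR quasi-likelihood test over 17 types, adjusted p = 0.944). EdgeR called 0% of types for stress, and 0 at an unadjusted p under 0.05, and DESeq2 gave Microglia 0.14 with an adjusted p of 0.953. Without each library in turn the edgeR value was 0.03 (without the female baseline controls) to 0.26 (without the stressed CMS males), called in 0 of 8 fits. The stressed mice of the CMS cohort had both stressors and those of the baseline cohort the restraint alone, so this comparison averages over both exposures.

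Within pairs of 1 sex and 1 cohort, the ratio of the stressed to the control share was 1.35 in baseline females (95% interval 1.16 to 1.56) and 1.20 in CMS females (1.04 to 1.38). It was 1.01 in baseline males (0.858 to 1.18) and 0.911 in CMS males (0.773 to 1.07). These intervals cover counting error only and leave out the spread between libraries. The sex by stress interaction that tests this difference was 0.40 on the log2 scale (SE 0.483, edgeR adjusted p = 0.871; 0% of types called). The other comparisons were also short of the threshold, with edgeR log2 folds of -0.12 for female against male (SE 0.230, adjusted p = 0.960; 5.88% of types called) and 0.13 for the CMS against the baseline cohort (SE 0.229, adjusted p = 0.641; 17.6% of types called). Leaving out 1 library moved the interaction to between 0.23 (without the female baseline controls) and 0.59 (without the female CMS controls). Without the stressed CMS males the sex and cohort values were -0.23 and 0.25, and without the female baseline controls 0.0036 and 0.016; 0 of these fits called Microglia.

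**Figure D4:**
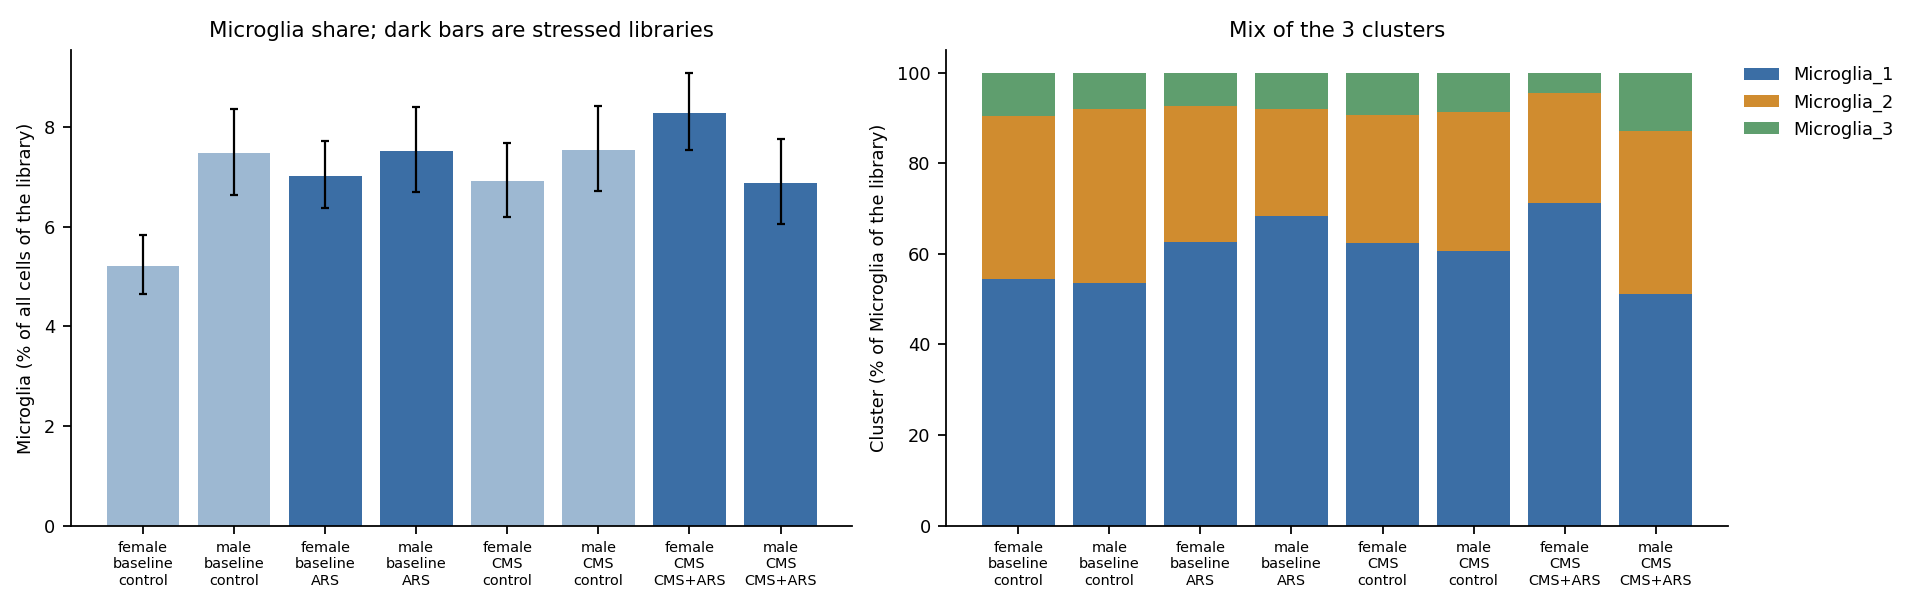
Left, Microglia as a percent of all cells of each of the 8 libraries, with 95% Clopper-Pearson intervals (counting error only); right, the percent of each library's Microglia in each of the 3 clusters. Microglia_1 is the most frequent cluster in all 8 libraries, at 51.2% to 71.2%.

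The mix of the 3 clusters varied between libraries around a common order. Microglia_1 was the most frequent cluster in every library. It held 54.5% and 53.6% of Microglia in the female and male baseline controls, and 62.6% and 68.4% in the stressed females and males of that cohort. In the CMS cohort it held 62.3% and 60.7% in the controls, and 71.2% and 51.2% in the stressed females and males. It was higher in the stressed library of 3 of the 4 pairs and lower in the CMS males.

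The Microglia_1 means were 63.3% ± 8.84 in stressed and 57.8% ± 4.36 in control libraries (SD, n = 4 each). The difference of 0.35 in log2 odds (SE 0.30) did not pass limma's test over 21 clusters within their types (adjusted p = 0.719). Limma called 0% of those clusters for stress, and 0 at an unadjusted p under 0.05. Without the stressed males of the CMS cohort the difference was 0.68, and without the stressed males of the baseline cohort 0.11, and neither passed the test.

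Microglia_2 ran opposite to Microglia_1 within Microglia, where the shares of the clusters add up to the whole. It held 35.9% and 38.4% of Microglia in the female and male baseline controls and 30.0% and 23.6% in the stressed females and males. In the CMS cohort it held 28.4% and 30.5% in the controls and 24.5% and 36.0% in the stressed females and males. The stressed and control libraries overlapped, and the difference was -0.33 in log2 odds (SE 0.270, limma adjusted p = 0.719). Of all cells, Microglia_2 was higher in the stressed library of 3 of 4 pairs and lower in the baseline males (ratio 0.618). Its mean share of all cells was 2.10% in stressed and 2.25% in control libraries.

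Microglia_3 was the rarest cluster in every library, with 18 to 31 cells. It held 9.66% and 7.97% of Microglia in the baseline controls, 7.39% and 7.99% in the stressed baseline females and males, and 9.27% and 8.77% in the CMS controls. The stressed females of the CMS cohort had the lowest share, 4.36%, and the stressed males of that cohort the highest, 12.8%. The sex by stress interaction of this share was -1.09 in log2 odds (SE 0.592, limma adjusted p = 0.992; 0% of clusters called).

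Of all cells, Microglia_3 made up 0.506% ± 0.114 in female and 0.684% ± 0.134 in male libraries (SD, n = 4 each), and it was lower in the female library of 4 of 4 pairs. The log2 fold of -0.43 (SE 0.274) did not pass edgeR's test over 32 clusters (adjusted p = 0.676), which called 0% of clusters for sex, and its own unadjusted p was 0.148.

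The values of the cells themselves did not pass limma's test for stress in Microglia or in any of their clusters. The library medians of UMIs averaged 1773 ± 139 in stressed and 1770 ± 75.6 in control libraries, and those of genes 972 ± 58.2 and 971 ± 17.0 (SD, n = 4 each). The mitochondrial share averaged 1.47% ± 0.245 and 1.45% ± 0.146. Limma called 0% of types for stress in each of these 3 measures, and without adjustment 1 of 16 types for UMIs, 0 for genes and 1 for the mitochondrial share had p under 0.05.

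Within the CMS cohort, the stressed libraries had lower values of the mitochondrial share than the controls in Microglia_2 and higher ones in Microglia_3. In Microglia_2 it was 2.41% and 2.03% in the female and male CMS controls and 1.96% and 1.79% in the stressed CMS females and males. In Microglia_3 it was 2.64% and 2.61% in those controls and 3.24% and 3.29% in the stressed libraries. In the baseline cohort, Microglia_2 had 2.17% and 1.92% in the female and male controls and 2.28% and 2.26% in the stressed females and males, higher in both stressed libraries. Microglia_3 had 3.22% and 3.05% in the baseline controls and 3.28% and 2.996% in the stressed libraries, with no shared direction. The cohort by stress interactions were -0.574 points (SE 0.165) and 0.636 points (SE 0.164), and neither passed limma's test over 29 clusters (adjusted p = 0.388 for both; 0% of clusters called).

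UMIs of Microglia_3 had the largest sex by stress interaction among the 3 clusters. The medians were 1006 in female controls and 863.5 in stressed females of the baseline cohort, and 864.5 and 1289 in the males. In the CMS cohort they were 1228 and 779 in females and 1043 and 911 in males. The interaction was -0.63 on the log2 scale (SE 0.249, limma adjusted p = 0.488; 0% of clusters called), and -0.95 (limma adjusted p = 0.0380) without the stressed males of the CMS cohort.

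The library means of the S-phase score, a relative measure for genes of DNA replication, did not overlap between stressed and control Microglia. The library means were -0.00490 and -0.00314 in the female and male baseline controls and -0.00225 and 0.000121 in the stressed baseline females and males. They were -0.00225 and -0.00454 in the CMS controls and -0.00221 and 0.000124 in the stressed CMS females and males. The groups did not overlap (6.25% of types, 1 of 16), but the highest control library, at -0.002254, and the lowest stressed one, at -0.002248, almost met. The mean score was higher in stressed libraries in 13 of 16 types and 20 of 29 clusters, and lower in 3 types and 9 clusters. Macrophages were higher in the stressed library of 4 of 4 pairs, by 0.0102 on average. The library medians of Microglia did overlap, at -0.0147 to -0.00872 in controls and -0.0116 to -0.00755 in stressed libraries.

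The mean difference of 0.00266 (SE 0.00124) did not pass limma's test over the 16 types (adjusted p = 0.286; 0% of types called). The exact two-sided permutation test gave p = 0.0286, the smallest it can give, and 0.457 adjusted over the types. Single cells weigh on these means: among the 12 cells with the highest G2/M scores, S scores of 0.320 to 0.749 were found in 5 cells of stressed libraries. Another 2, at 0.265 and 0.405, were in the female CMS controls, and the part of such cells in the difference was not tested. The G2/M score averaged -0.0261 ± 0.00287 in stressed and -0.0264 ± 0.00723 in control libraries (SD, n = 4 each).

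Genes per 100 UMIs, a measure of how many different transcripts are drawn from a given number of molecules that was added after the data were seen, were higher in female than in male Microglia without overlap. The library medians were 54.3 to 55.4 in the 4 female and 52.9 to 54.1 in the 4 male libraries, with means of 54.9 ± 0.454 and 53.4 ± 0.557 (SD, n = 4 each). Microglia_2 did likewise, at 45.7 to 48.0 in females and 42.9 to 45.2 in males. Groups of 2 of 16 types (12.5%) and 2 of 29 clusters (6.90%) did not overlap for this measure. Limma did not call either difference. Its adjusted p was 0.337 for Microglia, with 6.25% of types called, and 0.409 for Microglia_2, with 0% of clusters called. Most cells shared the direction: the measure was higher in females in 13 of 16 types (median difference 1.24) and 22 of 29 clusters. It was lower in 3 types and 7 clusters. Macrophages were higher in the female library of 4 of 4 pairs, by 2.16 on average. The measure falls as UMIs rise, and the median UMIs of Microglia were lower in the female library of 4 of 4 pairs, at 1662 to 1790 in females and 1676.5 to 1962 in males; the part of depth in the difference was not tested.

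A few Microglia stood far above the rest in the G2/M score, a relative measure for genes of late division. There were 12 with a score over 0.3, a level set after the values were seen, and their scores ran from 0.327 to 1.31. The next Microglia score was 0.141. Of all 35672 cells, 22 passed this level, so 12 of 22 were Microglia, and 0 of 229 Macrophages did, which allows a share of up to 1.60%.

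These 12 cells made up 0.478% of Microglia (interval 0.247% to 0.833%). Of them, 7 were Microglia_1, 4 Microglia_2 and 1 Microglia_3. They came from 6 of 8 libraries, with 2 in each, and with none in the male controls of either cohort, where 0 of 276 and 0 of 285 cells allow up to 1.33% and 1.29%. The stressed libraries held 8 (0.593%) and the controls 4 (0.344%), and the female libraries 8 (0.563%) and the male ones 4 (0.367%).

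The 12 cells had a median of 3229 UMIs, against 1765 in all Microglia. An S score over 0 was found in 10 of them, and a doublet score of 0 in 7. The highest doublet score among them, 3.97, was a top value that Microglia_1, Microglia_2 and Macrophages all reached. The part of depth and of doublets in these scores was not tested. Apart from this tail, Microglia had the lowest median G2/M score of the 17 types, at -0.0360.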

How the data were processed

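Each line of the deposited table is 1 cell, with its experiment, condition, sex, cell type, cluster and 6 numbers. Cell Ranger (3.0.2 and 3.1.0), mm10 and Seurat 3.1.3 are named in the submitters' processing notes. UMIs and genes per cell are whole-number counts as deposited. The mitochondrial share was deposited by the authors as a fraction and turned into percent here. The doublet and cell cycle values are scores as the authors deposited them; the sources used here name no tool for them. A cell's experiment, condition and sex placed it in 1 of 8 libraries, where the experiment named for the acute stress was read as the baseline cohort.

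Microglia are the cells with that label. The members, measures and tests were chosen with earlier results of these data known. No member was filtered out and no doublets were removed here. Types named beside Microglia are Macrophages, the neighbours of Microglia in rank, and types called in a comparison.

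Cells per type and cluster (at least 80 cells) were tested with edgeR 4.0.16 (quasi-likelihood test). Cluster shares within a type (log2 odds, 0.5 added to both numbers) and library medians or means (at least 10 cells in each library) were tested with limma 3.58.1, in R 4.3.3. Scores were averaged by mean and other measures by median, with UMIs and genes on the log2 scale. Fits used the 8 libraries together, with terms for sex, for cohort and for exposure, and an interaction where tested. Benjamini-Hochberg adjustment ran over all types or clusters of a comparison, with a threshold of 0.05. The doublet score of Microglia_3, 0 in every library, could not be tested. The fits were also run on simulated data of independent values, which held no shifts shared by the types of a library. Alternatives were TMM factors, DESeq2 1.42.0, limma on log odds, no minimum number of cells, the tested term alone, cells with at least 1000 UMIs or a doublet score of at most 1, neurons left out of the total, exact permutation and sign-flip tests, trended and robust moderation, means for medians, values relative to the library, a fixed cluster mix, and each library left out. The log2 scale for the mitochondrial percent, mitochondrial UMIs and genes per 100 UMIs were added after the data were seen.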

Additional observations from a re-analysis of the deposited data

How the results depend on the processing

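Of 190 results, 3 were past the threshold: the cohort differences in the mitochondrial percent of Microglia_1 and in the mitochondrial UMIs of Microglia and of Microglia_1. Mitochondrial UMIs are the product of the mitochondrial share and the UMIs, and Microglia_1 is part of Microglia, so these 3 are not independent of each other. Of their alternatives 0 changed sign. Of 2794 values under alternatives, 20 lost a call and 16 gained one, exact tests being read on their unadjusted p, and 358 values, of 127 of the 187 results short of the threshold, changed sign without a call, so their directions are not fixed.

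The labels carry no replicate numbers, and a sign flip over the 4 matched pairs of libraries stood in for a pair block. With a smallest p of 0.125 it cannot pass the threshold, and the 3 called values were -0.364 points, -0.46 and -0.49 there. Its loss of each of these 3 calls was thus fixed in advance, and these losses are counted among the 20. The mitochondrial percent of Microglia_1 was -0.731 points as means (limma adjusted p = 0.0591), -0.463 with a doublet score of at most 1, and -0.383 to -0.333 without each library; on the log2 scale it was -0.44 and kept its call. Its mitochondrial UMIs were -0.33 on the log2 scale relative to the library (limma adjusted p = 0.217) and -0.55 to -0.42 without each library. Those of Microglia lost the call at -0.22 with a fixed mix and -0.30 relative to the library.

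The mitochondrial percent of Microglia by cohort passed with a fixed mix (-0.272 points), as means (-0.561), with the tested term alone and with trended moderation (-0.301 for both) and relative to the library (-0.554). It was -0.356 to -0.214 without each library, short of the threshold in all 8. The exact permutation test gave 5 of the 16 gains, unadjusted only: for that percent (-0.301, adjusted p = 0.114), the S score by stress (0.00266, 0.457), UMIs by cohort (-0.13 on the log2 scale, 0.343) and, female against male, genes per 100 UMIs of Microglia (1.51, 0.183) and of Microglia_2 (2.37, 0.414). The 3 called results also passed it only unadjusted, with an adjusted p of 0.166 for the percent of Microglia_1. Trended moderation passed the cohort by stress interaction of the Microglia_3 mitochondrial percent (0.636, limma adjusted p = 0.00819). Without each library, the G2/M score of Microglia by sex was 0.00377 to 0.00913, and in Microglia_3 the sex by stress interactions were -0.95 to -0.31 for UMIs, -0.77 to -0.30 for genes and 3.69 to 10.9 for genes per 100 UMIs, each past the threshold only without the stressed CMS males. The sex difference in Microglia_3 genes per 100 UMIs was 0.984 to 5.42, past it only without the male baseline controls. The causes of these changes were not tested. With 1 library per group and 18 to 31 cells of Microglia_3 in each, the precision for that cluster is limited.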
